A study of Mus musculus with 20 samples.

Results

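The C1q subunit genes are C1qa, C1qb and C1qc, which encode the A, B and C chains of the complement protein C1q. They were taken by symbol, which gave 3 genes of 54838 in the count files. Each was detected in all 20 libraries, and all 3 were among the 12680 genes that passed the filter on low counts. Microglia are the brain's own macrophages, and the libraries hold their RNA from frontal cortex of mice at postnatal day 40, with 1000 cells sorted per mouse on high CD11b and low CD45 and 1 library per mouse. The labels name 5 genotypes, namely hC4A/A (n = 2), hC4A/- (n = 5), hC4B/- (n = 4), C4-/- (n = 5) and WT (n = 4). The prefix hC4A or hC4B denotes the human complement gene C4A or C4B, C4-/- denotes loss of mouse C4, and WT is wild type. The labels of the mice with human C4 do not say what mouse C4 they carry, and they name neither the construct nor the promoter of the human genes. The study's title places these mice as a humanized model of C4A, a susceptibility factor for schizophrenia, and the comparisons ask whether C1q transcripts, which act just before C4, differ with the C4 genotype.

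C1q is the recognition molecule of the classical complement pathway. One chain of each kind winds into a collagen-like stalk with a globular head, and several such trimers join into a bouquet that binds antibodies, apoptotic cells and other surfaces. On binding, the attached proteases C1r and C1s are activated, and C1s cleaves C4 and C2, which builds the enzyme that cleaves C3. In the brain microglia are the main source of C1q, and C1q and C3 are known to tag synapses that microglia then engulf during postnatal development.

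The 3 genes lie side by side on the minus strand of chromosome 4 of GRCm38, within 18675 bases. C1qb (ENSMUSG00000036905) spans 136880129 to 136886187, C1qc (ENSMUSG00000036896) 136889804 to 136893065 and C1qa (ENSMUSG00000036887) 136895917 to 136898803. Gaps of 3616 and 2851 bases separate them, and the longest transcript of each has 3 exons. Exons cover 1040 bases in C1qa, 1088 in C1qb and 1931 in C1qc, whose longest transcript has 1203 bases. The remaining genes within 100000 bases are Ephb2 and Epha8, which encode ephrin receptors, and Zbtb40, which encodes a zinc finger protein. Over the 20 libraries Ephb2 held 65 counts, Epha8 47 and Zbtb40 1226, whereas C1qa held 28812, C1qb 39094 and C1qc 27380. High counts at this locus were thus those of the C1q genes and not of their neighbours.

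Promoter sequence was matched for 2 of the 3 genes in the RefSeq table of GRCm38.p6, and is shown because both stretches hold the same core of a factor that marks macrophages. Both stretches are on the minus strand and read 5′ to 3′ towards the gene, C1qb at chr4:136886201-136886450 and C1qc at chr4:136893066-136893164. Capitals mark ACTTCCT, the reverse complement of AGGAAGT, which is a core bound by ETS factors such as PU.1, the macrophage lineage factor.
C1qb: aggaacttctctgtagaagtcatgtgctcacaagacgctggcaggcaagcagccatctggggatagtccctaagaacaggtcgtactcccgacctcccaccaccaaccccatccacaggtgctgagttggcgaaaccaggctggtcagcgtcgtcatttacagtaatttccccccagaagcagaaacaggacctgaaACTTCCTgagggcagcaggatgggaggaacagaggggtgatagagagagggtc
C1qc: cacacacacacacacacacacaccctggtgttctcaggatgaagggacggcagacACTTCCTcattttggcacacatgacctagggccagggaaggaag
The core begins 53 bases before the RefSeq start of C1qb and 195 bases before that of C1qc. Of 32851 promoters of 300 bases in the same table, searched on both strands, 9.35% hold AGGAAGT, so a match is common. Neither C1q promoter window holds TGCTGAC, a core of MAF factor sites (4.67% of promoters), or TATAAA, the TATA box (13.6%). The 2 matches overlap no match of another motif, and a match is a description of letters, not a measured site.

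The libraries held between 855099 and 2735181 counts over genes, with a median of 1710215.5, and satellite-like genes took 13.3% to 81% of them. In 4 libraries, called broad here, over 27000 genes were detected (27178 to 30907, against 11348 to 23912 in the other 16). These are hC4A/A replicate 2, hC4B/- replicates 2 and 3, and C4-/- replicate 3, so results are given with and without them where they matter. Mouse C4b had 4 to 428 counts per library in the other 4 genotypes, C4-/- included, and 0, 0, 2 and 0 in WT. Its highest counts, 157 to 428, were in the broad libraries. Such counts do not show whether a C4 allele is intact, and their origin was not tested. Genotypes below are those of the labels, which these data do not check. The WT libraries also carry deposited names of a series of their own, and genotype and series cannot be told apart in contrasts with WT. All 10 microglia markers were detected, with a summed level of 4214 to 9471 CPM per library. CPM, the usual depth-normalised count, is here relative to the library size scaled by the TMM method.

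Border macrophages also make C1q, and a gate on low CD45 would leave out most of them, since they carry more CD45 than microglia. Their 10 markers summed to 503 to 754 CPM in hC4A/A, 372 to 868 in hC4A/-, 338 to 544 in hC4B/-, 451 to 1399 in C4-/- and 405 to 1776 in WT. Of the mean over libraries, Stab1 held 654 CPM, Mrc1 25.8 CPM and each of the other 8 at most 1.99 CPM, and Cd163, Lyve1 and Pf4 had no count in at least 14 of 20 libraries. Stab1 is also made by microglia. Summed markers of monocytes reached at most 56.9 CPM, of lymphocytes 33 CPM, of neurons 115 CPM, of endothelial and mural cells 65.7 CPM and of erythroid cells 42.2 CPM. Those of astrocytes reached 744 CPM and those of the oligodendrocyte lineage 359 CPM, of which Slc1a3 and Cnp held most, with means of 337 and 118 CPM, and the astrocyte marker Gfap averaged 0.809 CPM. Markers of neutrophils summed to 1408 CPM in WT replicate 2 and at most 174 CPM outside WT. Fewer C1q-expressing cells and less C1q RNA per cell cannot be told apart in such bulk libraries.

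C1qa, the gene of the A chain, was measured at 676 and 121 CPM in hC4A/A libraries, 564, 555, 437, 1017 and 1498 CPM in hC4A/-, and 1104, 136, 1221 and 421 CPM in hC4B/-. It was at 1056, 346, 305, 780.1 and 1432 CPM in C4-/- libraries and at 1061, 288, 797 and 693 CPM in WT. The lowest values, 121 and 136 CPM, were in broad libraries, and the ranges of all 5 genotypes overlapped. Means ran in the order hC4A/- (814 ± 442, SD), C4-/- (784 ± 478), hC4B/- (720.2 ± 526), WT (709.8 ± 321) and hC4A/A (398 ± 393), with every step smaller than the SDs beside it.

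C1qb, the gene of the B chain, was at 1037 and 387 CPM in hC4A/A libraries, 969.5, 661, 692, 1366 and 1975 CPM in hC4A/-, and 1502, 380.3, 1346 and 466 CPM in hC4B/-. It was at 1526, 504, 569.6, 1146 and 1811 CPM in C4-/- libraries and at 1187, 476, 1089 and 956 CPM in WT. The highest library of all was again hC4A/- replicate 5, and every genotype overlapped every other. Means ran in the order hC4A/- (1133 ± 549, SD), C4-/- (1112 ± 576), WT (927 ± 315), hC4B/- (924 ± 582) and hC4A/A (712 ± 459.5), and no neighbours differed beyond their SD.

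C1qc, the gene of the C chain, was at 457 and 341 CPM in hC4A/A libraries, 683, 642, 644, 1153 and 521 CPM in hC4A/-, and 1203, 308, 2346 and 591 CPM in hC4B/-. It was at 662, 499, 645, 408 and 1285 CPM in C4-/- libraries and at 1161, 336, 718 and 486 CPM in WT. Its highest value, 2346 CPM, was in hC4B/- replicate 3, a broad library, and its lowest, 308 CPM, in the other broad library of that genotype. Its range in hC4A/A, 341 to 457 CPM in 2 libraries, lay below that in hC4A/-, 521 to 1153 CPM. The share of all genes whose ranges separate in this contrast was not counted, so the gap is not read as particular to C1qc. In the same contrast 0% of all genes tested were called. All other pairs of genotypes overlapped. Means ran in the order hC4B/- (1112 ± 903, SD), hC4A/- (728 ± 245), C4-/- (699.8 ± 344), WT (675 ± 359.8) and hC4A/A (399 ± 82.0), and the first step, though the widest, was smaller than the SD of hC4B/-.

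**Figure D1:**
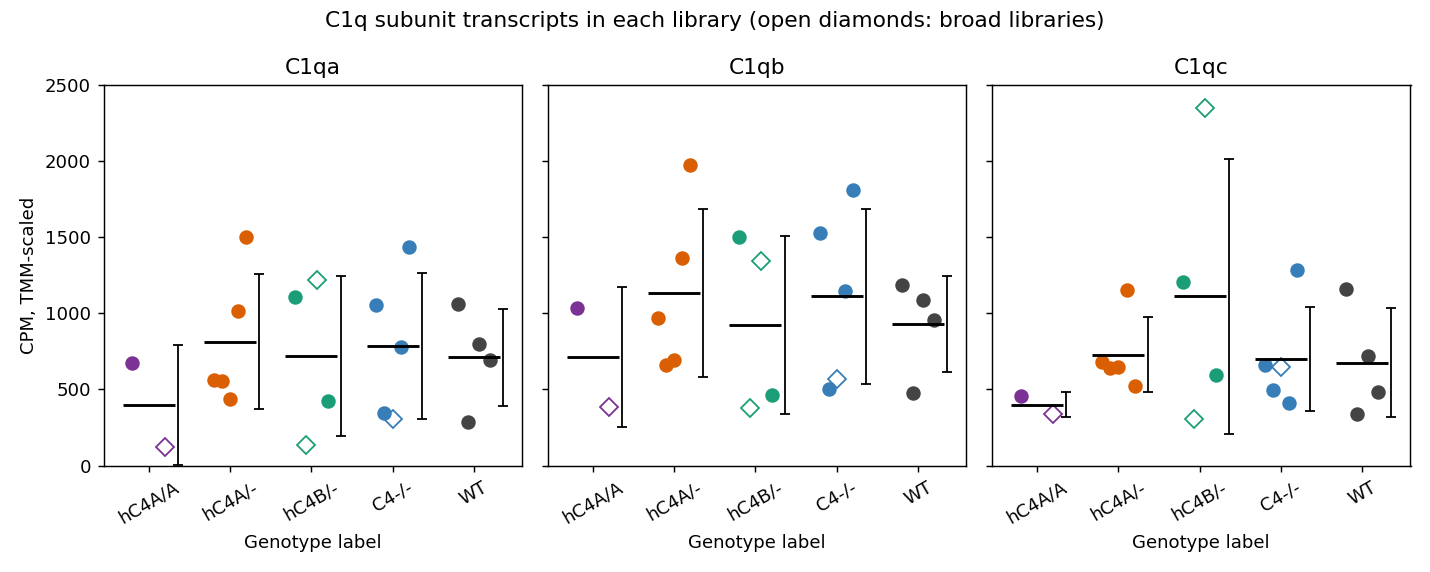
CPM of C1qa, C1qb and C1qc in each of the 20 libraries by genotype label, on a linear axis, with open diamonds for the 4 broad libraries, horizontal lines for group means and error bars of 1 SD. The ranges of all 5 genotypes overlap for C1qa and C1qb. Those of C1qc in hC4A/A (n = 2) and hC4A/- (n = 5) do not, and C1qc reaches 2346 CPM in 1 broad hC4B/- library.

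No C1q gene passed the test in any contrast of genotypes. edgeR's quasi-likelihood test called 0 of 27 tests (3 genes in 9 contrasts) at an adjusted p under 0.05, 0 had an unadjusted p under 0.05, and DESeq2 and voom also called 0. The test called 0% of the 12680 genes in each of the 9 contrasts, so the lack of a call is no feature of C1q. Between 275 and 2120 genes per contrast had an unadjusted p under 0.05. With no difference at all, a share of 0.05 of the 12680 genes is expected there. DESeq2 called 0 to 58 genes and voom 0 to 6. The F test for any genotype difference called 15 genes, 0.118% of those tested, with adjusted p values of 0.973 for C1qa, 0.987 for C1qb and 0.891 for C1qc. P-values measure the spread between these libraries, 1 per mouse.

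The intervals show what these libraries could not resolve. In hC4B/- against WT, C1qc had a log2 fold change of 0.72 ± 0.74 (SE, 95% interval -0.79 to 2.23, edgeR adjusted p = 0.659), while C1qa was at 0.021 ± 0.81 and C1qb at -0.0048 ± 0.76. The median of all tested genes in that contrast was 0.18. Without the broad libraries the values were 0.53 ± 0.47 for C1qc, 0.22 ± 0.50 for C1qa and 0.19 ± 0.46 for C1qb, and leaving out hC4B/- replicate 3 alone brought C1qc to 0.18. In hC4B/- against C4-/-, C1qc was at 0.67 ± 0.70 (interval -0.76 to 2.09), C1qa at -0.12 ± 0.77 and C1qb at -0.27 ± 0.72. The 2 contrasts share the hC4B/- libraries. In both, C1qc lay above the other 2 subunits, which is taken up below as a ratio within libraries.

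The hC4A/A libraries had the lowest mean of each gene, with log2 fold changes against WT of -0.83 ± 1.02 for C1qa, -0.38 ± 0.94 for C1qb and -0.76 ± 0.94 for C1qc (median of all genes 0.18). Against hC4A/-, the C1qa value was -1.03 ± 1.01 (interval -3.08 to 1.03, edgeR adjusted p = 0.771), the largest in size of the 27, with C1qb at -0.67 ± 0.93 and C1qc at -0.87 ± 0.92. This rests on 2 libraries, of which replicate 2 is broad. Without the 4 broad libraries the same values were -0.29 ± 0.65 for C1qa, -0.16 ± 0.59 for C1qb and -0.79 ± 0.65 for C1qc, and those against WT were -0.081 ± 0.65, 0.15 ± 0.59 and -0.59 ± 0.65. The lone remaining hC4A/A library is assumed to vary like the other groups in those fits.

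By its labels, C4-/- against WT asks about loss of mouse C4, though C4b counts were higher in C4-/- than in WT. The log2 fold changes there were 0.14 ± 0.77 for C1qa (interval -1.42 to 1.70), 0.26 ± 0.72 for C1qb (-1.21 to 1.73) and 0.051 ± 0.70 for C1qc (-1.38 to 1.48), and the median of all genes was 0.33. Of hC4A/- and C4-/-, only the label hC4A/- names human C4A, and it does not state mouse C4. In hC4A/- against C4-/- the log2 fold changes were 0.054 ± 0.72, 0.027 ± 0.68 and 0.058 ± 0.66 for C1qa, C1qb and C1qc, with intervals from -1.41 to 1.52 at the widest. In hC4A/- against WT they were 0.20 ± 0.77, 0.29 ± 0.72 and 0.11 ± 0.70. In hC4A/- against hC4B/-, the contrast of the human genes, they were 0.18 ± 0.77 and 0.29 ± 0.72 for C1qa and C1qb and -0.61 ± 0.70 for C1qc. In hC4A/A against C4-/- they were -0.97 ± 1.01, -0.64 ± 0.93 and -0.81 ± 0.91. All these intervals hold 0 and also 2-fold changes in at least 1 direction, so neither a change nor its absence is shown.

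**Figure D2:**
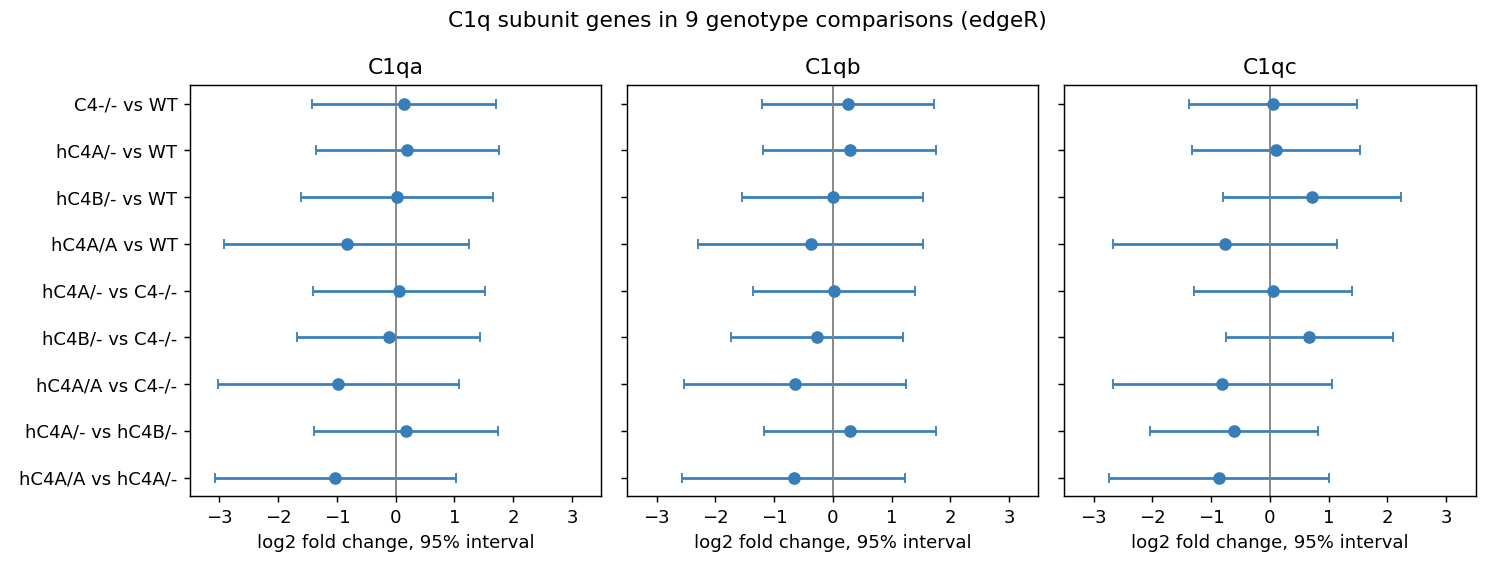
log2 fold changes (x axis) of C1qa, C1qb and C1qc in the 9 genotype contrasts (rows), from edgeR over 20 libraries, with 95% intervals as bars. All 27 intervals cross 0, and the points run from -1.03 to 0.72.

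The subunits were also set against each other within libraries. Counts of C1qb exceeded those of C1qa in 20 of 20 libraries, from 1.10 to 3.20 times (median 1.41). The log2 ratio averaged 0.58 ± 0.40 over 20 libraries and 0.47 ± 0.18 (SD) over the 16 that are not broad. C1qc was less tied to C1qa, with ratios from 0.348 to 2.82 times, above 1 in 13 of 20 libraries, and a log2 ratio of -0.11 ± 0.59 in the 16. In the 4 broad libraries C1qc was 1.92 to 2.82 times C1qa, above every one of the other 16, where it reached at most 1.47 times. Within those 16 the ratio was not highest where most genes were detected. The library with the most, C4-/- replicate 1 (23912), was at 0.627 times. That with the fewest, hC4A/- replicate 3 (11348), was at 1.47 times. Satellite-like genes took least of the 16, 13.3% to 17.6%, in hC4A/- replicate 5, WT replicate 4, hC4A/A replicate 1 and C4-/- replicate 1. Their ratios were 0.348, 0.702, 0.676 and 0.627. The most, 58.8% and 58.5%, was in hC4B/- replicate 4 and hC4A/- replicate 3, at 1.41 and 1.47. In between the order was not strict, with 1.21 at 18.65% in hC4A/- replicate 1 and 0.524 at 32.9% in C4-/- replicate 4. The part of breadth or of satellite-like counts in the ratio was not tested.

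By genotype, the log2 ratio of C1qc over C1qa was above 0 in 4 of 4 hC4B/- libraries, with a mean of 0.68 ± 0.47, against -0.077 ± 0.33 in WT (SD, n = 4 each). The difference of 0.76 gave a two-sided exact permutation p of 0.0857 (adjusted over 27 comparisons 0.589), where 4 against 4 libraries allow no p below 0.0286. The hC4B/- values were 0.12, 1.17, 0.94 and 0.49 and the WT values 0.13, 0.22, -0.15 and -0.51, so the groups overlapped. The highest 2, 1.17 and 0.94, were the broad libraries, and without these the difference was 0.39 with an adjusted p of 0.975. In the order above, satellite-like genes took 28.3%, 80.95%, 58.5% and 58.8% of the counts of the hC4B/- libraries. In the WT libraries they took 27.55%, 53.2%, 27.5% and 15.4%. Against C4-/- the difference was 0.72 (exact permutation p = 0.175). No ratio of any pair of subunits passed in any contrast, and the smallest adjusted p was 0.589. In hC4A/A against WT, 2 against 4 libraries, no p below 0.0667 could be reached.

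As shares of the C1q counts of a library, C1qb took 27.4% to 49.4%, C1qa 14.2% to 37.5% and C1qc 13.04% to 47.8%. The extremes of C1qc stood in hC4A/- replicate 5, at 13.04% (Wilson 95% interval 12.4 to 13.7), and in hC4B/- replicate 3, at 47.8% (46.6 to 48.9). In hC4A/- replicate 5 C1qa and C1qb were at their highest CPM of all libraries, 1498 and 1975, while C1qc was at 521 CPM, below the other 4 hC4A/- libraries. The intervals cover counting error only, since amplified reads without molecular identifiers are not independent molecules.

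**Figure D3:**
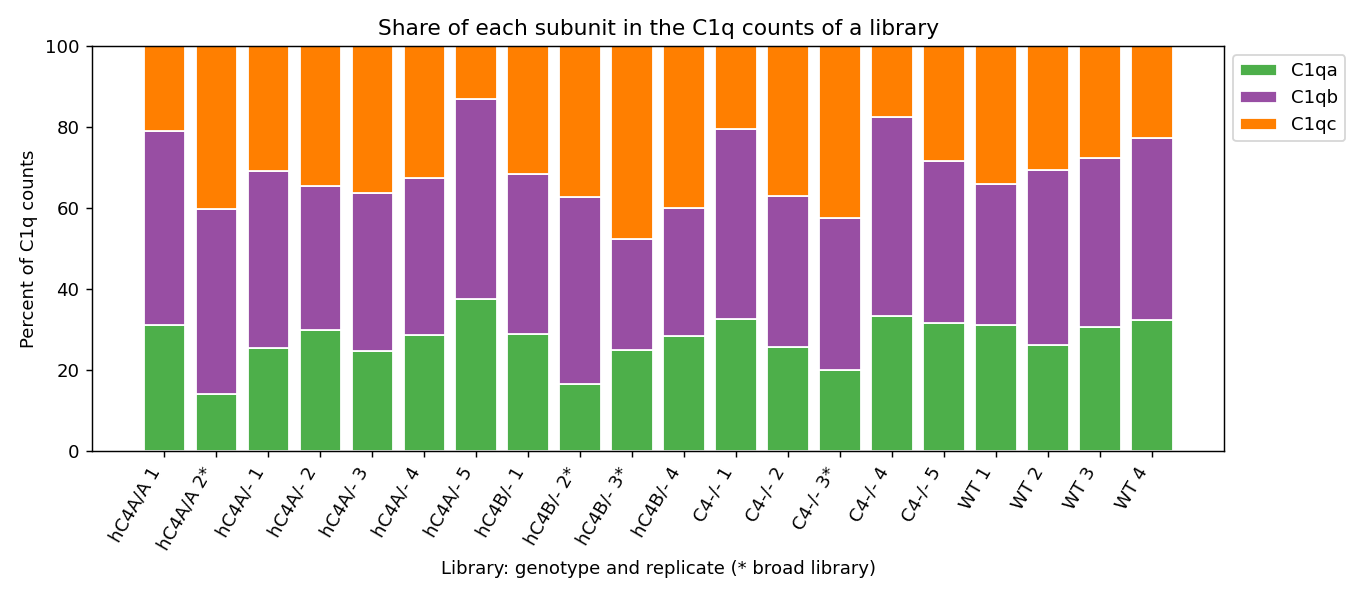
Percent of the C1q counts (y axis) that each subunit took in each of the 20 libraries (x axis, with an asterisk for the broad ones). C1qc takes from 13.04% in hC4A/- replicate 5 to 47.8% in hC4B/- replicate 3.

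Levels of different genes are compared per kilobase of exon. On that scale C1qb averaged 921 ± 443 CPM per kilobase, C1qa 697 ± 398 and C1qc 391 ± 248 (SD, n = 20). In paired comparisons within libraries C1qb was 1.43 times C1qa and 2.41 times C1qc on average, each in 20 of 20 libraries (two-sided permutation p = 2e-05 each, the smallest that 100000 sign flips can give, adjusted 3e-05). C1qc was 0.596 times C1qa and the lower of the pair in 16 libraries (permutation p = 0.00018), and these were the 16 that are not broad. The place of C1qc depends on its length, since part of its exon sequence belongs to a non-coding transcript. With the longest transcript of each gene it was at 627 ± 398 CPM per kilobase, its ratio to C1qa was 0.956 (permutation p = 0.705), and C1qb exceeded it 1.5 times, in 17 of 20 libraries. C1qb was thus the highest subunit on either length, and C1qa and C1qc could be ordered on 1 of them only.

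Across libraries C1qa and C1qb moved together most closely. Over 20 libraries log2 CPM gave Pearson r = 0.951 and Spearman rho = 0.961 for C1qb with C1qa (permutation p = 1e-05, the smallest possible, adjusted 3e-05). C1qc with C1qa gave r = 0.696 and rho = 0.696 (permutation p = 0.00081 and 0.00097, adjusted 0.00121 and 0.00145), and C1qb with C1qc gave r = 0.625 and rho = 0.659 (permutation p = 0.00287 and 0.00206, the largest of the 3 pairs). Without the 2 libraries farthest from the median of the x axis r was 0.961, 0.593 and 0.584. In the 16 libraries that are not broad it was 0.967, 0.610 and 0.524 (adjusted permutation p = 3e-05, 0.0189 and 0.0381), and there without the 2 farthest 0.951, 0.459 and 0.306. Within these 16, r of C1qc with the other 2 subunits thus fell without the 2 farthest libraries, and that of C1qa with C1qb changed little. The libraries left out differ by pair. Leaving out the farthest also narrows the range, which can itself lower r. All points share their library's scaling, and with RLE scaling, the method of DESeq2, r was 0.904, 0.547 and 0.528, but rho for C1qc no longer passed (0.441 with C1qa and 0.405 with C1qb, adjusted permutation p = 0.0764 for both).

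**Figure D4:**
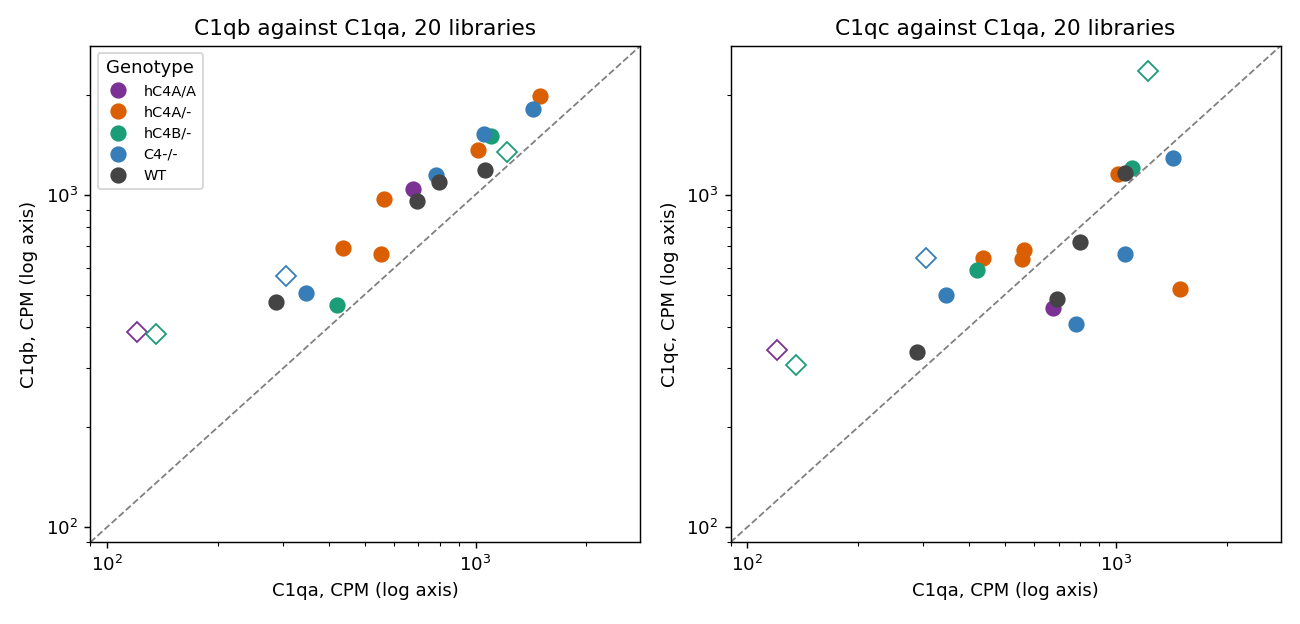
C1qb (left) and C1qc (right) against C1qa in CPM over 20 libraries, on log axes, coloured by genotype, with open diamonds for the 4 broad libraries and a dashed line of equal CPM. All 20 points lie above the line for C1qb (r = 0.951), and they scatter on both sides for C1qc (r = 0.696).

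The genes whose log2 CPM was most like the mean of the 3 subunits, among 3895 genes with 10 or more counts in at least 16 libraries, were Tyrobp (r = 0.957), Cyba, Fcer1g, Myl6, Fau, Fkbp2, Rps27, Fth1, Tmsb4x and Rps13 (r = 0.921), where the median gene had r = 0.217. Tyrobp encodes an adaptor of TREM2, Fcer1g an adaptor of Fc receptors, Cyba a subunit of the phagocyte oxidase and Fth1 the ferritin heavy chain. Of the 25 most like, 10 encode ribosomal proteins. By gene name, 74 of the 3895 genes were of this kind, with a median r of 0.81 (0.76 over the 16 libraries that are not broad). The longest transcripts of the top 10 had a median of 804 bases against 4059 of all genes considered, so these genes had short transcripts, and the part of length in their likeness was not tested. In the 16 libraries that are not broad, 4 of the 10 were again in the top 10. Tmem119, a microglia surface marker chosen here after its values were seen, ranked 552 over 20 libraries (r = 0.53) and 3 over the 16 (r = 0.94). These correlations describe these libraries and carry no test.

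Likeness to C1q differed within and between lists. Of 20 homeostatic microglia genes the median r was 0.510, and 11 stood in the top 25% of the 3895, with Cst3, the protease inhibitor cystatin C, at 0.88. In the 16 libraries that are not broad that median was 0.596. The 10 microglia markers, most of which are in the homeostatic list too, had a median of 0.295 (0.356 in the 16), with Csf1r, the receptor of CSF1, at -0.11 (0.69) and Sall1, a microglial transcription factor, at -0.35 (0.021), both chosen after their values were seen. Of 5 ranked complement receptors the median was 0.375 over 20 libraries and 0.127 over the 16, and of 13 ranked macrophage transcription factors 0.143 and 0.060. Among the factors Spi1, which encodes PU.1, stood at 0.63, Irf8 at 0.48 and Maf at 0.43, but in the 16 libraries that are not broad Maf was at -0.60 and Spi1 at 0.62. The summed C1q CPM was 8.74% and 12.7% of the summed homeostatic CPM in hC4A/A libraries, 9.04% to 14.1% in hC4A/-, 7.91% to 13.6% in hC4B/-, 6.14% to 11.7% in C4-/- and 5.59% to 12% in WT. The highest library was 2.52 times the lowest in that share and 5.96 times in the C1q sum itself, and the genotypes overlapped in both. Cst3 averaged 11790 CPM and so carried much of the homeostatic sum.

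The components that C1q acts with had few counts. The 3 subunits held 95286 counts over 20 libraries, and the genes of the proteases that C1q carries, C1ra, C1rb, C1s1 and C1s2, held 111 in all, named here for their role. C3, the central component, held 36 counts and C2 held 51. Of 15 classical pathway genes after C1q, 2 passed the filter, and C4b, at 10.3 CPM per kilobase, was the highest. C4b was also the 1 listed gene that passed the F test for any genotype difference (edgeR adjusted p = 0.0321). In the 4 broad libraries it held 157 to 428 counts. Of 11 activators of the lectin and alternative pathways 2 passed the filter, Masp2 at 0.913 and Masp1 at 0.252 CPM per kilobase, which encode proteases of the lectin pathway. Cfp, which encodes properdin, averaged 2.37 CPM per kilobase but did not pass it.

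Some of the receptor genes were higher than the genes of the components, and others were as low. C5ar2 and C5ar1, receptors of the C5a fragment, were at 121 and 74.7 CPM per kilobase, C3ar1, the receptor of C3a, at 96.3 and Itgam, the CD11b chain of complement receptor 3, at 41.5. Among proteins that bind C1q, the chaperone gene Calr was at 54.8, and the inhibitory receptor genes Lair1 and Cd33 at 37.2 and 26.1 CPM per kilobase. Other members, named here for their low counts, held few over 20 libraries. These were Cd93 (12), Dcc (17), Megf10 (18), Scarf1 (24), Ager (39) and Cr2 (50) of the C1q binding list. Of the complement receptors, Vsig4 held 6 and Itgax 56. Serping1, which encodes the inhibitor of C1r and C1s and is named for that role, held 4 counts in all. The receptor and binding genes named here lay below each C1q subunit on the same scale. Of 26 other genes with a C1q domain 3 passed the filter, and the highest by CPM, C1ql3, a synaptic secreted protein, averaged 1.58 CPM per kilobase and was detected in 4 libraries.

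**Figure D5:**
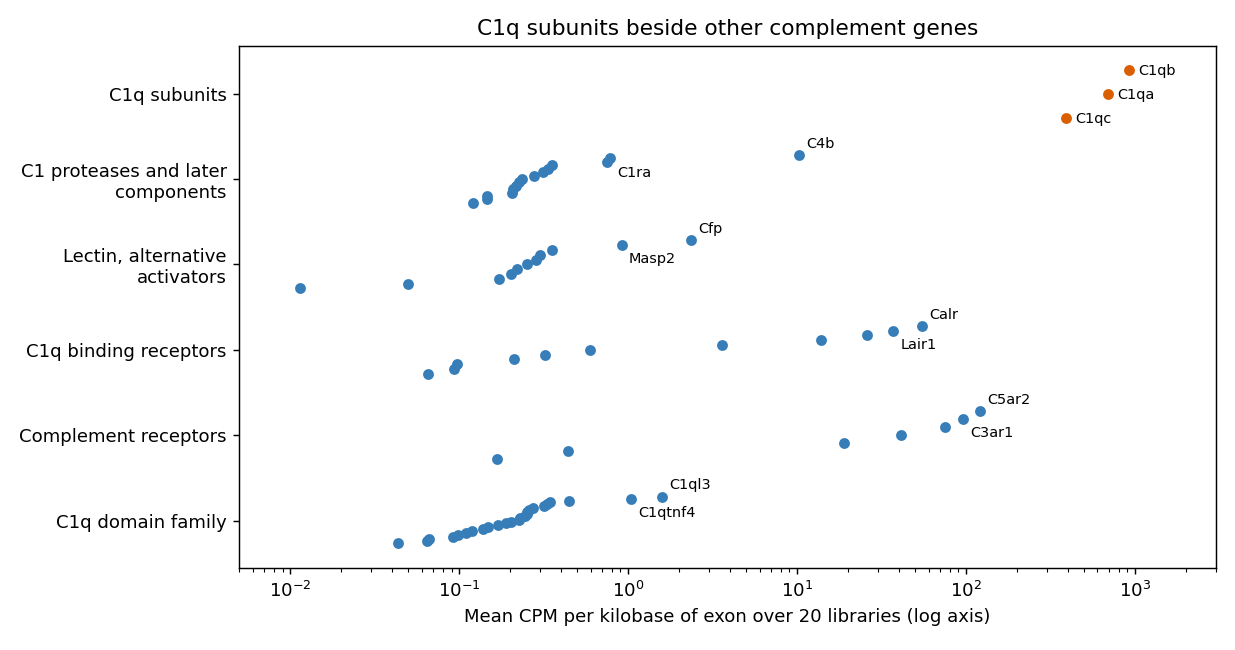
Mean CPM per kilobase of exon over 20 libraries (x axis, log) of the C1q subunits and 5 lists of related genes, 1 point per gene, with the 2 highest of each list named. The C1q subunits, at 391 to 921, lie to the right of every other gene drawn, and 1 gene of the C1q domain list with no count is not drawn.

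None of the 70 tested genes of the other lists passed in any of the 9 contrasts. The same test called 0% of all 12680 genes in each contrast, so this is no feature of the lists. The broad libraries stood apart in these lists: summed complement receptors were at 205 to 329 CPM in the 4 broad libraries, against 954 to 2791 CPM in the other 16, and summed macrophage transcription factors at 1309 to 2737 CPM, against 4956 to 12717 CPM. List medians against WT are therefore given over 20 libraries and, in a fit chosen after the data were seen, over the 16. All contrasts with WT share the WT libraries and are not independent.

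Complement receptors had a median log2 fold change against WT of -1.10 in hC4A/A, -0.58 in hC4A/-, -1.30 in hC4B/- and -0.52 in C4-/- over 20 libraries, with 5 of 6 tested genes below 0 in each, beside medians of all genes of 0.18, -0.05, 0.18 and 0.33. Over the 16 the medians were -0.41, -0.57, -0.71 and -0.74, with 5 of 5 below 0 in each and medians of all genes of -0.30, 0.015, -0.20 and 0.021. C5ar1 had the lowest p of them, at 113, 9.54, 22.9 and 113 CPM in hC4B/- libraries and 232, 294, 697 and 200.045 CPM in WT. The groups did not overlap, and the 2 lowest values were the broad libraries. The share of all genes that do not overlap in this contrast was not counted. There 0% of all genes were called, while 1659 had an unadjusted p under 0.05 in the edgeR test. The log2 fold change of C5ar1 was -2.45 ± 0.84 (edgeR quasi-likelihood test, adjusted p = 0.339), and -1.41 ± 0.53 without the broad libraries (edgeR adjusted p = 0.655). Neutrophils also express C5ar1, and the 7 tested neutrophil markers were all below 0 against WT in each of the 4 contrasts, with a median of -3.05 in hC4B/- (-4.77 over 8 markers without the broad libraries) and 0 of 7 called. Their part in the values of C5ar1 was not tested.

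Macrophage transcription factors had medians of -0.39, -0.30, -0.42 and -0.19 in hC4A/A, hC4A/-, hC4B/- and C4-/- against WT, and -0.12, -0.13, -0.32 and -0.19 over the 16. Irf8 was at -1.29 ± 0.93, -0.66 ± 0.68, -1.46 ± 0.73 and -0.66 ± 0.68 in the same order, and at -0.50 ± 0.49, -0.56 ± 0.29, -0.63 ± 0.38 and -0.53 ± 0.30 over the 16, with no call in either fit. C1q binding and uptake receptors had medians of -0.099, -0.57, -0.33 and 0.41, and -0.98, -0.45, -0.58 and 0.41 over the 16. Homeostatic genes had -0.44, -0.13, 0.065 and 0.15, and 0.014, -0.091, 0.10 and 0.033 over the 16. Genes that fold and modify collagen-like chains, which C1q needs for its stalk, had medians of 0.33, 0.060, 0.17 and 0.37, and -0.076, 0.29, -0.075 and 0.25 over the 16, with P4hb, a prolyl hydroxylase subunit, at 19.8 CPM per kilobase.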

How the data were processed

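Each library is 1 mouse, and groups and replicate numbers come from sample titles. Per the labels' protocols, cDNA was made by template switching, amplified, and made into libraries with a Nextera kit. The deposited values are raw counts of reads per gene that ignore strand, in STAR's layout. The submitters' processing notes name STAR, GRCm38 and edgeR, with no version or gene annotation. A deposited matrix named as normalized equalled the raw counts in 481140 of 481140 values, and served only as an alternative gene set of 24057 genes. Summary lines stayed out of library sizes and tests: unmapped (14.8% to 42.1% of reads), multimapping (13.2% to 28.9%), featureless (21.8% to 42.1%) and ambiguous (0.897% to 5.86%). Symbols, coordinates and lengths came from GENCODE annotation of GRCm38, and promoters from RefSeq. Strand is ignored, so antisense reads cannot be told apart.

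Genes were filtered with filterByExpr and scaled by TMM. All 20 libraries entered 1 edgeR 4.0.16 quasi-likelihood model in R 4.3.3 (robust, 1 coefficient per genotype, no covariates, 15 residual degrees of freedom, biological coefficient of variation 1.03), with Benjamini-Hochberg adjustment over 12680 genes. A standard error is the log2 fold change divided by the square root of F. DESeq2 1.42.0 and voom (limma 3.58.1) were alternatives, as were RLE scaling, other filters and left-out libraries. Ratios used counts plus 0.5 and two-sided exact permutation tests, and correlations log2 CPM with a prior count of 2 and 100000 permutations (scipy 1.17.1). The edgeR step was tested on simulated data.

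The members, lists, contrasts and tests were chosen with earlier results of these data known. Named genes are the subunits, up to 4 members per list of highest mean CPM, called members, C4b, genes within 100000 bases, and the 10 genes most like the subunits, with others marked in the text. Some genes that this rule names are not reported here.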

Additional observations from a re-analysis of the deposited data

Results flagged for a closer look

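In groups of 4 or 5 libraries the highest or lowest library was set against the rest, for 28 sets of values of the subunits, and 4 sets had a library far from the others. Chance alone would mark about 1 in 20 such sets if values were normally distributed and sets independent. These sets share genes and libraries, so the number marked is not compared with that rate. C1qc stood at 1285 CPM in C4-/- replicate 5, where the other 4 libraries held 408 to 662 CPM. The same library held the highest C1qa and C1qb of its genotype, 1432 and 1811 CPM. C1qc also stood at 1153 CPM in hC4A/- replicate 4, where the other 4 libraries held 521 to 683 CPM. The log2 ratio of C1qc over C1qa was -1.52 in hC4A/- replicate 5, where the other 4 libraries lay between 0.18 and 0.56. The log2 ratio of C1qb over C1qc in that library was 1.92, against 0.041 to 0.51 in the other 4. In hC4A/- replicate 5 the C1q genes held 11872 counts, the most of any library. No library marked in this way is one of the 4 with over 27000 detected genes.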

How the results depend on the processing

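All 27 C1q tests stayed above an adjusted p of 0.05 in every setting tried, 810 values over 30 settings, with a smallest adjusted p of 0.210. Directions of values near 0 did not hold, and the cause was not tested. On the log2 scale, C1qa in C4-/- against WT, 0.14 in the model of all libraries, was -0.15 without a filter, -0.12 with the deposited matrix's genes and -0.13 with the replicate block. C1qa in hC4A/- against hC4B/-, 0.18 in the model of all libraries, was -0.15 with RLE scaling, -0.093 with satellite genes out of the library size, -0.15 in DESeq2, -0.013 without the broad libraries and -0.18 in a fit of the 2 genotypes. C1qa in hC4B/- against C4-/-, -0.12 in the model of all libraries, was 0.22 with RLE scaling, 0.19 with satellite genes out of the library size, 0.22 in DESeq2, 0.063 with the deposited matrix's genes, 0.047 without the broad libraries, 0.052 with the replicate block and 0.23 in a fit of the 2 genotypes. C1qa in hC4B/- against WT, 0.021 in the model of all libraries, was -0.29 in voom, -0.24 without a filter, -0.054 with the deposited matrix's genes and -0.079 with the replicate block. C1qb in C4-/- against WT, 0.26 in the model of all libraries, was -0.031 without a filter and -0.020 with the replicate block. C1qb in hC4A/- against hC4B/-, 0.29 in the model of all libraries, was -0.017 with RLE scaling, -0.0051 with satellite genes out of the library size, -0.017 in DESeq2 and -0.055 in a fit of the 2 genotypes. C1qb in hC4A/A against WT, -0.38 in the model of all libraries, was 0.15 without the broad libraries. C1qb in hC4B/- against C4-/-, -0.27 in the model of all libraries, was 0.049 with RLE scaling, 0.054 with satellite genes out of the library size, 0.049 in DESeq2 and 0.060 in a fit of the 2 genotypes. C1qb in hC4B/- against WT, -0.0048 in the model of all libraries, was 0.31 with RLE scaling, 0.32 with satellite genes out of the library size, 0.31 in DESeq2, 0.19 without the broad libraries and 0.44 in a fit of the 2 genotypes. C1qc in C4-/- against WT, 0.051 in the model of all libraries, was -0.30 without a filter, -0.24 with the deposited matrix's genes and -0.12 without the broad libraries.

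Without the broad libraries the difference in log2 ratio turned in 8 of 27 comparisons. For C1qb over C1qa it was -0.15 in hC4B/- against WT (0.10 with them), 0.013 in hC4A/- against C4-/- (-0.069 with them) and 0.21 in hC4A/- against hC4B/- (-0.049 with them). For C1qc over C1qa it was -0.23 in C4-/- against WT (0.045 with them), -0.49 in hC4A/A against WT (0.54 with them), 0.25 in hC4A/- against C4-/- (-0.027 with them), -0.26 in hC4A/A against C4-/- (0.50 with them) and -0.51 in hC4A/A against hC4A/- (0.52 with them). The order per kilobase of C1qc against C1qa was -0.065 (log2) with the longest transcripts, in place of -0.75 with all exons, and no longer passed.

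Leaving out 1 library at a time gave these ranges of the log2 fold change where the direction turned. C1qa had -0.26 to 0.33 in C4-/- against WT, -0.13 to 0.39 in hC4A/- against C4-/-, -0.019 to 0.56 in hC4A/- against WT, -0.25 to 0.74 in hC4A/- against hC4B/-, -0.39 to 0.49 in hC4B/- against C4-/- and -0.50 to 0.46 in hC4B/- against WT. C1qb had -0.064 to 0.45 in C4-/- against WT, -0.16 to 0.36 in hC4A/- against C4-/-, -0.029 to 0.95 in hC4A/- against hC4B/-, -1.19 to 0.20 in hC4A/A against WT, -0.63 to 0.23 in hC4B/- against C4-/- and -0.61 to 0.34 in hC4B/- against WT. C1qc had -0.29 to 0.26 in C4-/- against WT, -0.17 to 0.47 in hC4A/- against C4-/-, -0.12 to 0.67 in hC4A/- against WT and -0.91 to 0.0097 in hC4A/- against hC4B/-. The log2 ratio of C1qb over C1qa had differences of -0.14 to 0.013 in hC4A/- against C4-/-, -0.041 to 0.15 in hC4A/- against WT, -0.19 to 0.26 in hC4A/- against hC4B/-, -0.33 to 0.12 in hC4B/- against C4-/- and -0.21 to 0.24 in hC4B/- against WT. The log2 ratio of C1qc over C1qa had differences of -0.23 to 0.27 in C4-/- against WT, -0.25 to 0.34 in hC4A/- against C4-/-, -0.14 to 0.38 in hC4A/- against WT, -0.53 to 1.53 in hC4A/A against C4-/-, -0.49 to 1.57 in hC4A/A against WT and -0.51 to 1.56 in hC4A/A against hC4A/-. The log2 ratio of C1qb over C1qc had differences of -0.14 to 0.27 in C4-/- against WT, -0.38 to 0.18 in hC4A/- against C4-/-, -0.30 to 0.19 in hC4A/- against WT, -0.42 to 0.58 in hC4A/A against C4-/-, -0.34 to 0.66 in hC4A/A against WT and -0.38 to 0.62 in hC4A/A against hC4A/-.

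The count of genes called per contrast was 0 in the model and ran to 58 in DESeq2, 6 in voom, 65 without a filter, 83 with the deposited matrix's genes, 5 without 1 library, and 1 without satellite genes in the library size, without the broad libraries or in fits of 2 genotypes. The F test called 15 genes, 24 with RLE scaling, 65 in DESeq2, 697 without a filter, 609 with the matrix's genes, 2 without the broad libraries, 0 in voom and 0 with the replicate block, and 0 to 34 without 1 library. RLE scaling moved the median over all genes by over 0.1 in several contrasts, to 0.53 in place of 0.18 in hC4B/- against WT, where C1qc was then at 1.09. Same-numbered libraries did not deviate together (33 pairs, median correlation 0.0083, 5 over 0.1, and 6 of 20 libraries closest to one of their own number), so numbers do not pair the libraries and the replicate block is given as a setting only. Added counts of 0 or 1 in the ratios changed no call or direction, nor did prior counts of 0.5 or 5 in the correlations. With these depths, 94 to 4454 counts of C1qa per library, the spread between libraries and not counting error sets the width of the intervals.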

Other observations

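The 2 stranded count columns split the reads of the C1q genes evenly, with 50.3% of C1qa, 50.02% of C1qb and 50.3% of C1qc on the first strand. Zbtb40, the neighbour detected in all 20 libraries, had r = 0.054 with the mean log2 CPM of the subunits, and Ephb2 had r = -0.29. Among genes other than the 13 satellite-like ones, C1qb ranked between 26 and 249 by count in the 20 libraries, C1qc between 16 and 281 and C1qa between 45 and 387. The rank of 16 for C1qc was in hC4B/- replicate 3, where C1q took 0.977% of the counts outside satellite-like genes, and the lowest share, 0.178%, was in C4-/- replicate 2.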
